A study of Mus musculus with 62 samples.

Results

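The genes of oxidative phosphorylation were followed across 62 RNA-seq libraries from mouse brain. They were taken by symbol: genes encoded by the mitochondrial genome (mt-), the nuclear subunits of complex I (Nduf), complex II (Sdha to Sdhd), complex III (Uqcr), complex IV (Cox4 to Cox8) and complex V (Atp5), and cytochrome c (Cycs). The symbols of 145 annotated genes matched, and 110 of these were among the 12483 genes held in the count tables. They comprise 13 mitochondrial mRNAs, 2 mitochondrial rRNAs, 7 mitochondrial tRNAs, 86 nuclear protein-coding genes and 2 processed pseudogenes (Cox6c2 and Ndufb4c). The nuclear genes are 37 complex I subunits, 8 complex I assembly factors (Ndufaf), 4 genes of complex II, 8 of complex III, 11 of complex IV, 17 of complex V, and Cycs. All 110 were in the table of the nucleus accumbens (NAc) and prefrontal cortex (PFC), and 108 in the table of the suprachiasmatic nucleus (SCN), which lacks mt-Tl1 and Ndufb4c. Tissue was punched from frozen brains of 26 C57BL/6J mice killed at ZT6, about 4 weeks after a circadian rhythm disruption (CRD) or control paradigm. The study's methods name adolescent exposure alone for this tissue, while the protocol in the labels also names exposure of adults. There were 19 SCN, 26 NAc and 17 PFC libraries. Sample labels carry region and mouse number but neither CRD or control nor sex, so every region holds mice of unknown treatment and sex, and only regions and libraries are compared. Each library came from a single mouse. In punches of whole tissue, fewer cells of a type and less RNA per cell cannot be told apart.

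Oxidative phosphorylation couples electron transfer through complexes I to IV to proton pumping, and complex V (ATP synthase) uses the proton gradient to make ATP. The mitochondrial genome encodes core subunits of complexes I, III, IV and V and the rRNAs of the mitochondrial ribosome, and it is transcribed from each strand as a long precursor that is cut at the tRNAs. Complex II and all other subunits are encoded in the nucleus, so the complexes draw on both genomes. Neurons depend heavily on this pathway to restore ion gradients.

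The mitochondrial mRNAs cannot all be read equally well, because a stretch of mouse chromosome 1 holds a nuclear copy of part of the mitochondrial genome. Every 75-base window of a member was compared with all other annotated transcripts, 75 bases being the read length. The following pairs show why reads cannot tell some members from their copies. They are taken from the GENCODE M21 transcripts, on GRCm38, and each runs from the start codon. Capitals mark the position that differs, T3C in mt-Nd3 counted from the start of its coding sequence, and mt-Atp6 and Gm10925 do not differ.
mt-Nd3 (chrM:9459-9533, plus strand): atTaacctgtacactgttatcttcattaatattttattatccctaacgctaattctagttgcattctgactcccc
Gm28438 (chr1:24613045-24613119, minus strand): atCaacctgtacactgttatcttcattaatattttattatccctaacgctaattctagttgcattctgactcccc
mt-Atp6 (chrM:7927-8001, plus strand): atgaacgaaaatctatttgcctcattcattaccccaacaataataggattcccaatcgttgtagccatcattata
Gm10925 (chr1:24614577-24614651, minus strand): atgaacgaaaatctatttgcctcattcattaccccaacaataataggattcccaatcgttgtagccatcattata

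Over the coding sequence, mt-Atp6 and Gm10925 were identical at 678 of 678 bases, mt-Co2 and Gm28661 at 681 of 681, mt-Co3 and Gm28437 at 783 of 783 and mt-Nd4l and Gm10222 at 294 of 294, and mt-Nd3 and Gm28438 at 344 of 345. The share of windows found in another transcript was 99.86% for mt-Co3, 99.51% for mt-Co2 and mt-Atp6, 98.65% for mt-Nd4l and 97.81% for mt-Nd3. It was 61.5% for mt-Nd4, 39.84% for mt-Co1, 5.71% for mt-Nd2 and 1.66% for mt-Nd5, and no window of mt-Cytb, mt-Nd1, mt-Nd6, mt-Atp8 or the rRNAs was shared. The start of mt-Atp6 is at the same time the end of mt-Atp8, over 43 bases (chrM:7927-7969), and a read that covers both genes belongs to neither in the authors' union counting. The 5 genes with over 90% of their windows shared and mt-Atp8 together held only a median of 0.681% of mitochondrial mRNA counts in SCN, 1.15% in NAc and 0.997% in PFC. Their values are therefore uncertain, and the sums are carried by the other 7 mRNAs.

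Library depth was 16.5 to 35.4 M counts (M, 1000000 counts) for the SCN, 28.9 to 60.01 M for the NAc and 31.2 to 50.3 M for the PFC. Because mitochondrial rRNA took a large and varying part of them, levels are given per nuclear protein-coding count, of which SCN libraries held 5.81 to 23.2 M, NAc libraries 8.91 to 26.9 M and PFC libraries 11.5 to 20.3 M. CPM below means counts relative to 1000000 of these nuclear counts after TMM scaling. The regions carried their markers: the summed level of 6 striatal genes was 1666 to 4220 CPM in NAc and 74.8 to 196 CPM in PFC, that of 6 cortical genes 2037 to 2410 CPM in PFC and 27.7 to 1151 CPM in NAc, and all 6 SCN genes were in the SCN table (111 to 804 CPM). Drd2 was at 0 in at least 1 PFC library and Neurod2 in at least 1 NAc library. Some libraries stood apart. SCN J1157 and J1159 held the most nuclear counts, SCN J1199 had the most striatal and the least SCN marker, SCN J1165 the most oligodendrocyte marker, NAc J1159 the most nuclear rRNA-like counts, and NAc J1199 the least striatal (1666 CPM) and the most cortical marker (1151 CPM, against a NAc median of 233). Without NAc J1199, no call of a mitochondrial mRNA or rRNA changed in the comparisons of the NAc with PFC or SCN. Nuclear members called in NAc against PFC were then 10 higher and 2 lower rather than 8 and 2, with Ndufab1 among the 10 (log2 fold change 0.27). In SCN against NAc they were 17 higher and 14 lower rather than 18 and 14. Mouse numbers fall into a range up to J1021 (7 SCN, 12 NAc and 7 PFC libraries) and one from J1140 (12, 14 and 10 libraries), and results are given within both where they differ.

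Mitochondrial mRNA was lowest in the SCN. Its sum was 2.81 to 10.97 counts per 100 nuclear counts in SCN with a median of 5.12, 5.45 to 18.9 in NAc with a median of 9.96, and 5.98 to 10.5 in PFC with a median of 8.26. The SCN value was below the NAc value of the same mouse in 17 of 19 mice and below the PFC value in 12 of 12, and the NAc value was above the PFC value in 15 of 17. Mitochondrial rRNA differed less, at 31.3 to 169 counts per 100 nuclear counts in SCN (median 96.1), 74.4 to 311 in NAc (125) and 88.4 to 197 in PFC (108). The lowest SCN value was that of J1157. It was lower in the SCN than in the NAc of 13 of 19 mice and than in the PFC of 11 of 12, and higher in NAc than PFC of 10 of 17. The ranges of the regions overlapped for both sums.

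The nuclear subunits had a higher median in SCN than in NAc on plain nuclear counts, an order that did not hold after TMM scaling. The 78 nuclear subunit genes, with Cycs and without assembly factors, summed to 0.859 to 1.71 counts per 100 nuclear counts in SCN (median 1.45), 1.01 to 1.71 in NAc (1.27) and 1.07 to 1.54 in PFC (1.18). The SCN was above the NAc in 14 of 19 mice and above the PFC in 9 of 12. The log2 ratio of medians was 0.19 for SCN against NAc and 0.29 for SCN against PFC on plain nuclear counts, and -0.011 and 0.042 once the TMM factors were applied. For mitochondrial mRNA the log2 ratio of medians was -0.96 and -0.69. Per nuclear subunit count, a library held a median of 3.597 mitochondrial mRNA counts in SCN (1.91 to 6.89), 7.74 in NAc (4.29 to 12.2) and 6.97 in PFC (4.79 to 8.17). Per 100 mitochondrial rRNA counts it held a median of 5.76 mRNA counts in SCN, 7.17 in NAc and 7.24 in PFC.

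**Figure D1:**
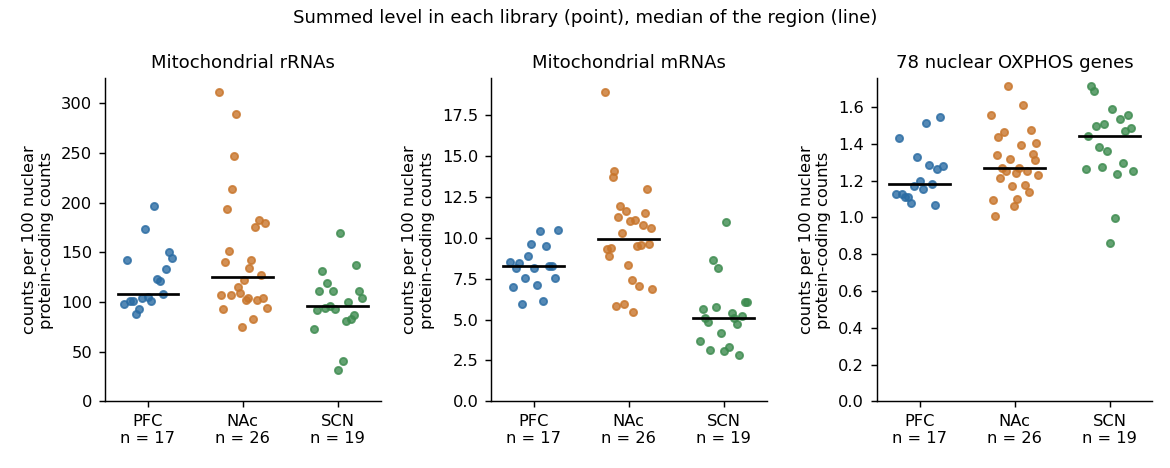
Summed levels of mitochondrial mRNA, mitochondrial rRNA and nuclear oxidative phosphorylation subunits per 100 nuclear protein-coding counts, 1 point per library of the SCN (n = 19), NAc (n = 26) and PFC (n = 17), with the median of each region as a line. The SCN medians are 5.12 for mitochondrial mRNA and 1.45 for nuclear subunits, against 9.96 and 1.27 in NAc, and the ranges overlap in every panel.

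The rRNAs themselves, mt-Rnr1 (12S, small subunit) and mt-Rnr2 (16S, large subunit), were the most abundant mitochondrial RNAs in every region. The level of mt-Rnr1 was 101200 to 487200 CPM in SCN (median 285900), 226400 to 1253000 in NAc (476900) and 322200 to 734500 in PFC (433800). The level of mt-Rnr2 was 197100 to 1009000 CPM in SCN (616000), 547800 to 1905000 in NAc (800000) and 625900 to 1201000 in PFC (747600). The highest NAc values were those of J965. NAc and PFC overlapped and neither rRNA was called between them (log2 fold change 0.28 ± 0.16 SE, adjusted p = 0.14 for mt-Rnr1, and 0.20 ± 0.14, 0.22, for mt-Rnr2, by edgeR's quasi-likelihood test). With the mouse as a block, mt-Rnr1 was called at 0.40 (edgeR adjusted p = 0.048) and mt-Rnr2 was not (0.29, 0.14). In the same 17 mice without the block, both were called, mt-Rnr2 at 0.35 (0.032). In the SCN, mt-Rnr1 was lower than in the NAc by -0.96 ± 0.16 (adjusted p = 2.9e-07) and mt-Rnr2 by -0.62 ± 0.15 (0.00016). The unequal change showed in their ratio within libraries: mt-Rnr2 held 1.76 to 2.49 times the counts of mt-Rnr1 in SCN (median 2.15), 1.46 to 2.49 in NAc (1.63) and 1.61 to 1.94 in PFC (1.74). The ratio was higher in the SCN than in the NAc of 17 of 19 mice and than in the PFC of 12 of 12. Nuclear rRNA-like rows (Gm42418, Gm26917 and Gm23935) took 8.96 to 19.3% of counts in SCN, 1.58 to 13.4% in NAc and 2.32 to 5.02% in PFC, and their part in these ratios was not tested.

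Among the mitochondrial mRNAs the levels per kilobase fell into separate tiers. In the NAc, median levels per kb were 20370 CPM for mt-Nd1 (complex I), 18640 for mt-Cytb (the mitochondrial subunit of complex III), 16930 for mt-Co1 (the catalytic subunit of complex IV), 9941 for mt-Nd2, 7684 for mt-Nd5 and 6200 for mt-Nd4. The next tier was mt-Nd3 at 1714 and mt-Nd6 at 1588 CPM per kb, followed by mt-Co2 at 269, mt-Atp6 at 202, mt-Atp8 at 102, mt-Co3 at 96.0 and mt-Nd4l at 53.7. Every gene of the lowest tier except mt-Atp8 was one with a near-identical nuclear copy. In the SCN the leading 3 were mt-Nd1 (9396 CPM per kb), mt-Co1 (8494) and mt-Cytb (7855), and in the PFC mt-Nd1 (16690), mt-Co1 (15150) and mt-Cytb (14720). Neighbours in these orders were closer than the spread of libraries, since the level of mt-Cytb ran from 11280 to 45660 CPM and that of mt-Co1 from 10590 to 49310 CPM over the NAc alone. mt-Nd6 is the only mRNA of the light strand, and since the sources used here do not say whether counting used the strand, reads of the opposite precursor cannot be told apart from it.

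**Figure D2:**
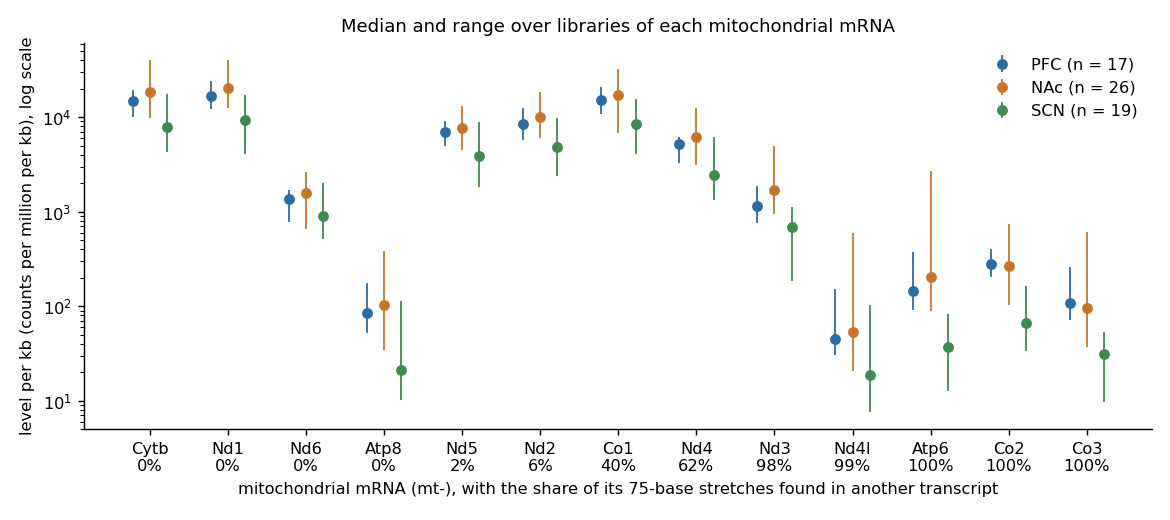
Level per kilobase of the 13 mitochondrial mRNAs, in CPM per kb on a log axis, with the median as a point and the range over libraries as a line for each region, and under each gene the share of its 75-base windows found in another transcript. mt-Cytb, mt-Nd1, mt-Co1, mt-Nd2, mt-Nd5 and mt-Nd4 sit highest, and the SCN median is the lowest of the regions for each gene.

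Between NAc and PFC, 5 of the 13 mitochondrial mRNAs were called higher in the NAc and 0 lower, where a call needed a Benjamini-Hochberg adjusted p under 0.05 over all 11569 genes and a fold change of at least 1.2. Of all genes, 24.2% were called higher in the NAc, 21.4% lower and 45.6% in either direction. The median log2 fold change of the 13 was 0.29, against 0.02 over all genes. mt-Cytb (ENSMUSG00000064370, chrM:14145-15288) was at 11280 to 45660 CPM in NAc with a median of 21330, and at 11350 to 22150 in PFC with a median of 16840. The regions overlapped, but the NAc was above the PFC in 16 of 17 mice, and the log2 fold change was 0.48 ± 0.13 (edgeR adjusted p = 0.0012). mt-Nd4 differed by 0.42 ± 0.13 (adjusted p = 0.0034) and mt-Nd1 by 0.29 ± 0.11 (0.026), while mt-Co1, at 0.12 ± 0.13 (0.42), and mt-Nd5, at 0.13 ± 0.10 (0.28), did not pass. The remaining calls were genes with nuclear copies, mt-Nd3 at 0.70 ± 0.17 (0.00032) and mt-Atp6 at 1.04 ± 0.35 (0.0088).

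The call of mt-Atp6, a subunit of the proton channel of ATP synthase, depended on a pair of libraries. NAc J1178 held 40606 counts of it (1840 CPM) and NAc J1141 19668 counts (969 CPM), while the other 24 NAc libraries held 864 to 5050 counts (60.5 to 351 CPM). In the PFC of the same mice its level was 165 and 88.6 CPM, and in the SCN 38.1 and 39.0 CPM. Without those NAc libraries the log2 fold change was 0.34 (adjusted p = 0.16).

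The difference between NAc and PFC was also unequal between the mouse ranges. In mice up to J1021, 5 mRNAs were called higher with a median log2 fold change of 0.54, and in mice from J1140, 2 were called higher and 1 lower with a median of 0.06. For mt-Cytb the values were 0.66 (adjusted p = 0.019) and 0.32 (0.051). With the mouse as a block, 9 of the 13 were called higher, among them mt-Nd2 (0.34), mt-Co1 (0.29), mt-Atp8 (0.51) and mt-Nd6 (0.46), and 9 were called without the block in the same 17 mice. A test of the difference between ranges called 0.0% of genes and no member at an adjusted p under 0.05 (edgeR), with 26 of 110 members and 2297 of 11569 genes at an unadjusted p under 0.05.

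The SCN was lower than both other regions in nearly every mitochondrial mRNA. Against the NAc, 13 of 13 were called lower (30.9% of all 11133 shared genes were called lower, 33.2% higher, 64.1% in all), with a median log2 fold change of -1.22 against 0.02 over all genes. Against the PFC, 12 of 13 were called lower (30.6% of all genes were called lower, 34.1% higher, 64.7% in all), with a median of -0.88 against 0.04. The SCN libraries were deposited in a table of their own, so region and table cannot be told apart, and the comparisons share the SCN libraries. mt-Cytb was at 4889 to 20290 CPM in SCN with a median of 8986, lower than in the NAc by -1.22 ± 0.14 (adjusted p = 1.4e-11, 17 of 19 mice) and than in the PFC by -0.74 ± 0.15 (1.6e-05, 12 of 12 mice). The highest SCN library, J1158, stayed just below the NAc median.

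The size of the difference varied from gene to gene. mt-Nd1 was lower in the SCN by -1.16 ± 0.13 against the NAc and -0.88 ± 0.14 against the PFC, and mt-Co1 by -1.03 ± 0.14 and -0.91 ± 0.15. mt-Nd6 differed least, by -0.54 ± 0.14 (adjusted p = 0.00049) and -0.27 ± 0.16 (0.11, not called), the latter called at -0.53 with the mouse as a block (0.0028). It was also called against the PFC in the same mice without the block. Its share of mitochondrial mRNA counts was 0.828 to 1.37% in SCN, with a median of 1.16%, against medians of 0.709% in NAc and 0.756% in PFC. Genes with nuclear copies had a median log2 fold change of -1.99 against the NAc over the 5 with more than 90% of windows shared and -1.09 over the other 8. mt-Atp6 was at 8.58 to 56.9 CPM in SCN (median 25), 60.5 to 1840 in NAc (138) and 61.5 to 255 in PFC (98.4), so that the SCN range lay wholly below both others. Its log2 fold change was -3.27 ± 0.34 against the NAc, or -2.58 without NAc J1178 and J1141, and -2.24 ± 0.35 against the PFC. Ranges lay apart for this gene alone against the NAc (13.0% of all genes) and for mt-Atp6, mt-Co2 and mt-Co3 against the PFC (20.7% of all genes). In either mouse range, 13 of 13 mRNAs were called lower against the NAc (median -1.41 up to J1021 and -1.08 from J1140) and 11 of 13 against the PFC (-0.89 and -0.94).

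Some cell type markers moved with these differences and others did not. The summed level of 7 neuronal genes had a median of 2060 CPM in SCN, 3583 in NAc and 6274 in PFC. Of the 7, 5 were called lower and 1 higher in the SCN than in the NAc, and 6 lower and 0 higher than in the PFC. Of all genes, 30.9% and 30.6% were called lower in the SCN. Neuronal genes were highest in the PFC, while mitochondrial mRNA was highest in the NAc. The 7 oligodendrocyte genes had a median sum of 2996 CPM in SCN, 2865 in NAc and 782 in PFC. Median sums of 7 microglial genes were 201 CPM in SCN, 322 in NAc and 319 in PFC, and those of 6 endothelial genes 216, 294 and 296. The 7 astrocyte genes had median sums of 6027, 7628 and 8374 CPM. The median sums of the microglial, endothelial and astrocyte genes were lowest in the SCN, while that of the oligodendrocyte genes was highest there. Yet 6 of the 7 astrocyte genes were called higher in the SCN and 1 lower, against the NAc and against the PFC alike. Their median log2 fold changes were 0.76 and 0.70, where 33.2% and 34.1% of all genes were called higher. The counted genes of fast-spiking interneurons had medians of 115 CPM in SCN, 132 in NAc and 105 in PFC. The SCN sum covers 2 genes, without Pvalb, and the others 3, so these medians are not of the same genes. Of 9 ependymal genes, 9 were in the SCN table (31.95 to 313 CPM) and 0 in the other. Their part in the result was not tested. The calls of mitochondrial mRNAs were 13 and 12 also without SCN J1199 and J1140, without SCN J1165, and without SCN J1157 and J1159.

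Of the tRNAs, which punctuate the precursors, 7 were counted in the NAc and PFC and 6 in SCN. mt-Tp (median 28.1 CPM in NAc and 23.9 in PFC) and mt-Tl1 were called higher in NAc than PFC, by 0.29 and 0.28. Both calls were lost without NAc J1178 and J1141 (0.26, under the fold threshold, and 0.28, adjusted p = 0.053), and that of mt-Tl1 also without NAc J1159 (0.052). mt-Tw was lower in the NAc, by -0.98 ± 0.29 (adjusted p = 0.0026), and mt-Tt by -0.66 ± 0.26 (0.026). In the SCN 4 of 6 were called lower than in the NAc (30.9% of all genes), with mt-Tm at 17.1 CPM against 72.0 the furthest (-1.92 ± 0.16, adjusted p = 1.9e-17), and 5 of 6 lower than in the PFC (30.6% of all genes). Reads of uncut precursor and of the neighbouring mRNAs can fall on these rows.

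The 13 mRNAs rose and fell over the libraries of a region with different closeness. With mt-Cytb, the log2 level of mt-Nd4 had r of 0.99 in SCN (n = 19), 0.97 in NAc (n = 26) and 0.97 in PFC (n = 17), and mt-Co1 had 0.98, 0.92 and 0.90. mt-Nd1, the gene nearest to the rRNAs, had 0.86, 0.86 and 0.50. mt-Co3, whose reads match a nuclear copy almost throughout, had 0.57, 0.34 and 0.02. All these values share their libraries and the nuclear denominator, and they are given as descriptions.

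Nuclear subunits were far below the main mitochondrial mRNAs per kilobase. The length used is all annotated exon bases of a gene over its transcripts, for instance 3567 for Cox6c. The ranking that follows therefore depends on the annotation and is not a ranking by CPM. The highest medians in the NAc were those of Atp5a1 and Atp5b, the alpha and beta subunits of ATP synthase (393 and 242 CPM per kb), Cox4i1 (315) and Cox8a (302) of complex IV, and Ndufb9 of complex I (275). Atp5a1 was also the highest nuclear member in the SCN (337) and PFC (363). Assembly factors were low, for instance Ndufaf7 at 8.33 CPM per kb in NAc. Of the isoforms known mainly from other tissues or conditions, Cox4i2, Cox6a2, Cox6b2, Cox7a1, Cox7b2, Cox8b, Cox8c and Ndufa4l2 were not among the rows of either table.

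The spread among libraries differed widely within a complex. Atp5a1 ran from 1075 to 1315 CPM over the 26 NAc libraries, with an SD of 0.078 on the log2 scale, and Ndufs1, the iron-sulfur subunit of complex I, from 192 to 245 CPM (SD 0.098). Atp5k (subunit e of ATP synthase) ran from 21.4 to 211 CPM, with an SD of 0.69, Uqcrh (the hinge protein of complex III) from 66.9 to 342 (0.53) and Ndufa1 from 17.7 to 79.9 (0.47). The lowest NAc library for Atp5k was J1140, which also had the lowest mitochondrial rRNA. The annotated exon bases of these genes, over all their transcripts, were 616, 1237 and 419, against 3135 for Atp5a1 and 8086 for Ndufs1. A relation of length to spread was not tested.

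Most nuclear subunits moved together over libraries. The correlation of a subunit's log2 level with the log2 sum of the others had a median over the 78 genes of 0.91 in SCN, 0.76 in NAc and 0.82 in PFC, where the same measure over 10610 other nuclear protein-coding genes had medians of 0.00, 0.03 and 0.00. Genes of the cytosolic ribosome followed the same sum about as closely, with medians of 0.88, 0.75 and 0.86 over 82 genes, and genes of the mitochondrial ribosome less so, with 0.69, 0.55 and 0.55 over 77. A few subunits ran against the rest. Sdha, the flavoprotein of complex II, had r of -0.17 in SCN, -0.60 in NAc and -0.65 in PFC, and Ndufa10, a complex I subunit, -0.21, -0.60 and -0.67. The level of Sdha was 324 to 509 CPM in NAc, lowest in J1019, the library where the sum of nuclear subunits was highest. Atp5d was below 0 in NAc (-0.26) and PFC (-0.21) and Atp5g2 in PFC (-0.04). Exon lengths of Sdha and Ndufa10 were 4126 and 3331 bases, and that of Atp5d 1928. Ndufab1, at 6883 bases, had r of 0.92 in SCN, 0.57 in NAc and 0.72 in PFC. A relation to length was not tested. The points of a region share depth and scaling.

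**Figure D3:**
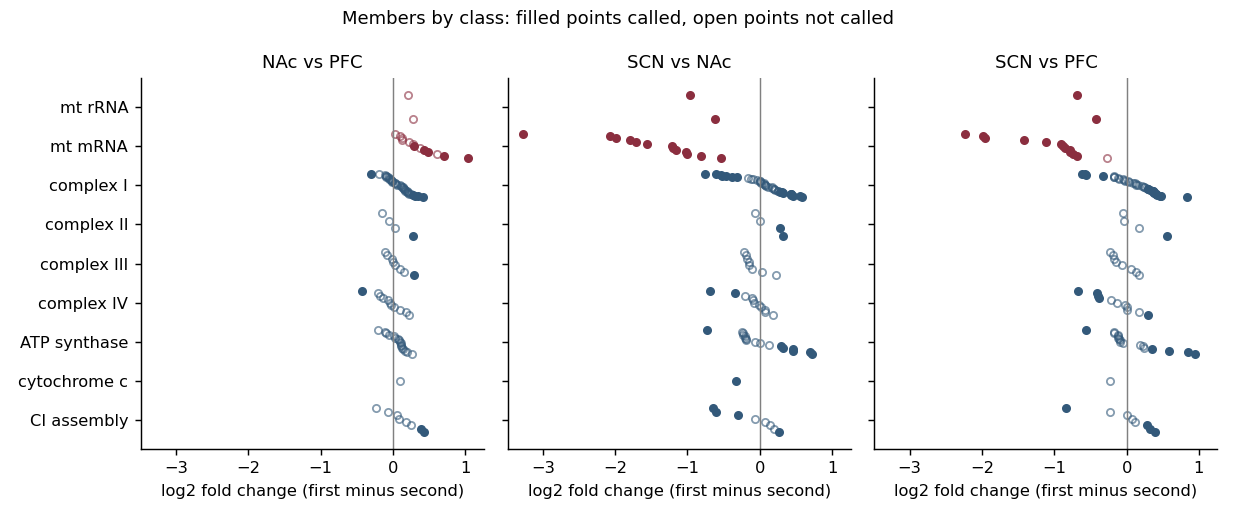
Log2 fold changes of the members in the 3 comparisons of regions, grouped by class (mitochondrial rRNA and mRNA, complexes I to V, cytochrome c, complex I assembly factors), with called members filled and others open. Nuclear members scatter around 0, with medians of 0.06, 0.01 and 0.03, while the mitochondrial mRNAs lie to the high side in NAc vs PFC (median 0.29) and to the low side in SCN vs NAc (-1.22) and SCN vs PFC (-0.88).

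Between NAc and PFC, single nuclear subunits and assembly factors of complex I differed. Of 86, 8 were called higher in the NAc and 2 lower, or 11.6%, where 45.6% of all genes were called. Their median log2 fold change was 0.06 and none of their ranges lay apart (9.59% of all genes did). The calls were 4 higher and 1 lower of 37 complex I subunits, 2 higher of 8 assembly factors, 1 higher in complexes II and III each, 1 lower in complex IV, and 0 of 17 in complex V by edgeR and by DESeq2, where 4 of the 17 were at an unadjusted p under 0.05 by either tool. Ndufs4, an accessory subunit needed for a stable complex I (ENSMUSG00000021764, chr13:114287795-114388258), was at 118 to 243 CPM in NAc (median 146) and 103 to 143 in PFC (112). The ranges overlapped, and the NAc was higher in 17 of 17 mice (0.42 ± 0.069, adjusted p = 8.4e-07). Ndufaf4, a complex I assembly factor, was at 38.6 to 68.7 CPM in NAc (median 56.7) and 36.2 to 50.3 in PFC (40.2), again higher in 17 of 17 mice (0.42 ± 0.057, 1.3e-08).

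Other nuclear genes called higher in the NAc were Ndufaf8 (0.39 ± 0.11), Ndufb10 (0.35 ± 0.054), Ndufa1 (0.31 ± 0.12) and Uqcrb, a complex III subunit (0.29 ± 0.073). Cox7a2, the widespread form of a small complex IV subunit, was at 37.9 to 101 CPM in NAc (median 69.7) and 69.2 to 122 in PFC (89.5). It was lower in the NAc in 15 of 17 mice (-0.43 ± 0.082, adjusted p = 1.4e-05). Ndufb6 was lower by -0.30 ± 0.088 (0.0029). These counts depended on the mice: 20 nuclear members were called higher and 1 lower in mice up to J1021, 3 higher and 6 lower in mice from J1140, and 13 higher and 3 lower with the mouse as a block. In the same mice without the block they were 15 and 3.

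Against the NAc, the SCN had 18 nuclear members called higher and 14 lower of 86, where 33.2% and 30.9% of all genes were called. Their median log2 fold change was 0.01. Against the PFC, 23 were higher and 10 lower, with a median of 0.03, where 34.1% and 30.6% of all genes were called. In either direction, 37.2% of the nuclear members were called against the NAc, where 64.1% of all genes were, and 38.4% against the PFC, where 64.7% were, a description without a test. Within complex I, 9 were higher and 7 lower against the NAc, and 14 higher and 4 lower against the PFC. Complex V had 6 higher and 1 lower, and 4 higher and 1 lower. Complex IV had 0 higher and 2 lower, and 1 higher and 4 lower. Complex II had 2 and 1 higher and none lower, and complex III had 0 calls among 8 genes in either by edgeR and by DESeq2, with 7 and 4 genes at an unadjusted p under 0.05 by either tool.

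These splits moved with the scale. On plain nuclear counts, which shift the median log2 fold change of all genes from 0.02 to 0.18 against the NAc and from 0.04 to 0.23 against the PFC, the splits were 31 higher and 9 lower, and 41 higher and 6 lower. In mice up to J1021 they were 23 and 13, and 36 and 6. In mice from J1140 they were 15 and 18, and 9 and 18. Without SCN J1157 and J1159 they were 23 and 13, and 28 and 10. With the mouse as a block they were 17 and 14, and 13 and 17, and in the same mice without it 17 and 14, and 13 and 15. A direction for the nuclear members as a whole did not hold across these settings.

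Among single genes, Cox6c, a complex IV subunit (ENSMUSG00000014313, chr15:35925886-35938246), was at 227 to 640 CPM in SCN (median 496), 425 to 1376 in NAc (760) and 640 to 1024 in PFC (759). The SCN was lower in 18 of 19 mice against the NAc (-0.69 ± 0.097, adjusted p = 3.2e-09) and in 12 of 12 against the PFC (-0.67 ± 0.11, 5.6e-08), and SCN and PFC ranges only just did not meet. Ndufs1 was at 143 to 189 CPM in SCN and 192 to 245 in NAc, apart in range at a modest difference of -0.32 ± 0.034 (2.5e-13). Against the PFC, at 177 to 224 CPM, it overlapped and was not called, at -0.18. Ndufaf1, a complex I assembly factor, was at 12.4 to 21.0 CPM in SCN (median 15.7), 15.96 to 44.4 in NAc (23.0) and 23.4 to 36.0 in PFC (28.4), lower by -0.60 ± 0.081 (1.2e-09) and -0.85 ± 0.089 (2.9e-13).

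Others lower in the SCN were Ndufa12 (-0.76 ± 0.098 against the NAc and -0.62 ± 0.11 against the PFC), Atp5mpl, a small ATP synthase protein (-0.73 ± 0.094 and -0.57 ± 0.10), and Ndufc1 (-0.61 ± 0.076 and -0.33 ± 0.083). Ndufaf4, which was higher in NAc than PFC, was lower in the SCN than in the NAc by -0.65 ± 0.064 and not called against the PFC (-0.23, or -0.35 and called with the mouse as a block). It was also called against the PFC in the same mice without the block. Ndufb9 (-0.57 ± 0.10) and Ndufa4 (-0.56 ± 0.088), the latter a subunit of complex IV but counted here with complex I by its symbol, were among the largest differences from the PFC. Cycs, the electron carrier between complexes III and IV, was at 71.5 to 156 CPM in SCN (median 122), 108 to 201 in NAc (147) and 122 to 174 in PFC (140). It was lower than in the NAc by -0.32 ± 0.068 (adjusted p = 2.4e-05) and not called against the PFC (-0.23). It was called there with the mouse as a block (-0.37), in the same mice without the block, and without SCN J1199 and J1140 (-0.27).

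Higher in the SCN were Ndufs6 (0.55 ± 0.095 against the NAc and 0.48 ± 0.11 against the PFC), Ndufb3 (0.47 ± 0.078 and 0.36 ± 0.087) and Atp5e, the epsilon subunit of ATP synthase (0.47 ± 0.10 and 0.35 ± 0.11). Against the PFC, Ndufb3 (0.24) and Atp5e (0.21) were not called with the mouse as a block, nor in the same mice without the block. Sdhc, a membrane anchor of complex II, was higher by 0.28 ± 0.068 and 0.55 ± 0.076. Sdha, the catalytic subunit of that complex, was higher than in the NAc in 19 of 19 mice (0.32 ± 0.037, adjusted p = 1.8e-11) and by 0.17 against the PFC, short of the fold threshold. Part of the largest increases, in Atp5h, Ndufab1 and Atp5l, changed once pseudogenes were counted with the genes.

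Atp5h (subunit d of ATP synthase, ENSMUSG00000034566) was at 225 to 471 CPM in SCN with a median of 369, 177 to 372 in NAc with a median of 211, and 184 to 255 in PFC with a median of 200. It was higher in the SCN than in the NAc in 19 of 19 mice (0.73 ± 0.070, adjusted p = 1.6e-14). Its processed pseudogene Gm10250 showed the reverse, with 28.9 to 62.6 CPM in SCN (median 49.3), 162 to 309 in NAc (193) and 146 to 226 in PFC (173), and ranges apart. The log2 fold change of Gm10250 was -2.12 ± 0.084 against the NAc and -1.82 ± 0.088 against the PFC. The start of both coding sequences shows why the counts are uncertain, with capitals at C69T, counted from the start codon. Aligned without gaps, 450 of 482 bases were identical. Apart from C69T and G309A, the differences lay close together from A441G on, and an alignment with gaps was not made.
Atp5h (chr11:115418433-115418507, minus strand): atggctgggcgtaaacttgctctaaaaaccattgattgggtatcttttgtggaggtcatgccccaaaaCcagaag
Gm10250 (chr15:5121061-5121135, minus strand): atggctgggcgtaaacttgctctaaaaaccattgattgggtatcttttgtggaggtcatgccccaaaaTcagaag

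With the counts of the pair added together, the difference in Atp5h was -0.06 ± 0.072 against the NAc (adjusted p = 0.43) and 0.14 ± 0.079 against the PFC (0.094), and the calls were lost. Atp5l (subunit g) and Gm10221, identical over 309 of 309 coding bases, behaved alike: Atp5l was higher in the SCN by 0.45 ± 0.096 and 0.59 ± 0.11, Gm10221 was lower by -1.92 ± 0.11 and -1.72 ± 0.12, and together they gave -0.26 and -0.10. Ndufab1, the acyl carrier protein of complex I, differs from Gm4459 by G137A in 468 bases. It was higher by 0.58 ± 0.079 and 0.83 ± 0.089 and Gm4459 lower by -1.37 ± 0.10 and -1.26 ± 0.11, and together they were still called, at 0.39 (adjusted p = 3.8e-06) and 0.61 (1.4e-09). Cox6c and Ndufa12 kept their calls with copies added, at -0.70 and -0.60 against the NAc. Over all processed pseudogene rows, 45 of 188 were called higher and 76 lower in the SCN than in the NAc, with a median of -0.14. Of all genes, 33.2% were called higher and 30.9% lower there. The SCN counts come from a separate table, and whether reads were divided between gene and copy in the same way there was not tested.

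**Figure D4:**
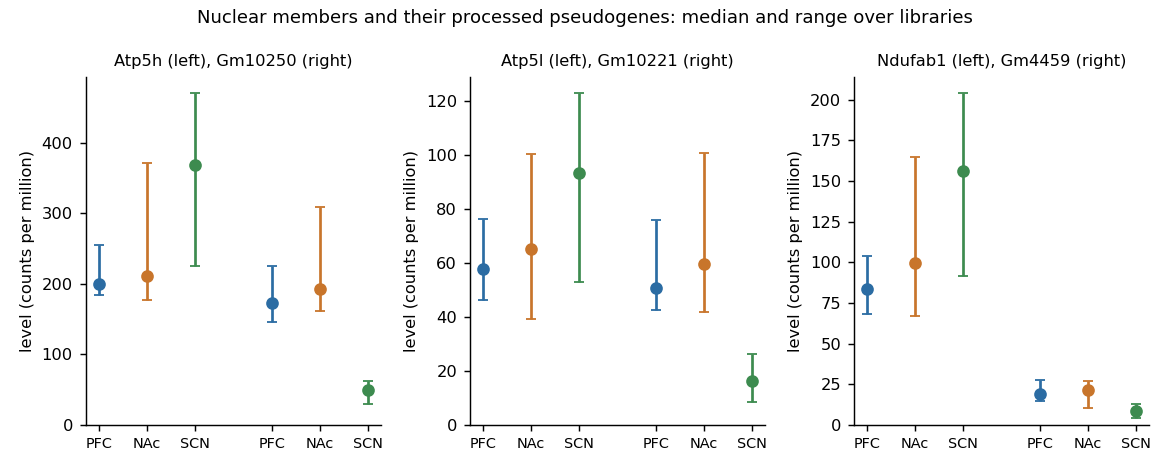
Levels of Atp5h, Atp5l and Ndufab1 beside those of their processed pseudogenes Gm10250, Gm10221 and Gm4459, in CPM, with the median as a point and the range over libraries as a bar for each region. The genes have their highest and the pseudogenes their lowest median in the SCN, for instance Atp5h at 369 and Gm10250 at 49.3 CPM in SCN, against 211 and 193 in NAc.

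Subunits with several isoforms were set beside each other. Subunit c of ATP synthase, the rotor ring, is encoded by 3 genes for the same mature protein. Per kilobase, Atp5g3 was highest in every region, at medians of 54.0 CPM in NAc, 55.9 in PFC and 66.3 in SCN. Atp5g1 was at 10.1, 9.95 and 8.58 and Atp5g2 at 5.91, 5.07 and 9.23 CPM per kb. The medians of the lower pair changed order in the SCN on this scale only. It divides by all annotated exon bases, 4912 for Atp5g1 and 1675 for Atp5g2. In CPM, the median of Atp5g1 was above that of Atp5g2 in every region. Atp5g2 was at 12.4 to 20.9 CPM in SCN (median 15.5), 6.37 to 16.9 in NAc (9.90) and 4.71 to 11.2 in PFC (8.49), and the SCN lay wholly above the PFC. Its log2 fold change was 0.69 ± 0.091 against the NAc (adjusted p = 6.2e-10) and 0.94 ± 0.10 against the PFC (1.5e-12). Of the windows of Atp5g2, 35.8% were shared with other transcripts, mainly the processed pseudogenes Gm10175 and Gm10231. Counts of these copies were not among those added to members, so their part in its values was not tested. Atp5g3 was higher than in the NAc by 0.30 ± 0.068 and by 0.24 against the PFC, the latter below the fold threshold but called without SCN J1157 and J1159 (0.30). Atp5g1 was not called in either (-0.25 and -0.17), but was against the NAc with the mouse as a block (-0.27) and in the same mice without the block. Cox7a2 and Cox7a2l, a related factor for supercomplexes, differed in opposite directions against the PFC, with Cox7a2 lower in the SCN by -0.41 ± 0.097 (0.00014) and Cox7a2l higher by 0.29 ± 0.099 (0.0067). With the mouse as a block, the call of Cox7a2l was lost (0.20) and it was called higher in NAc than PFC (0.30). Both held in the same mice without the block as well. Cox4i1, Cox6b1 and Cox8a were not called in any of the 3 comparisons, but with the mouse as a block Cox4i1 (-0.27, adjusted p = 0.02) and Cox8a (-0.30, 0.0016) were called lower in SCN than PFC. In the same mice without the block, Cox8a was called there and Cox4i1 was not. Cox6a1 was lower in the SCN by -0.35 ± 0.074 and -0.39 ± 0.081.

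Across libraries of a region, mitochondrial rRNA followed the nuclear subunits more closely than mitochondrial mRNA did. The log2 sums per 100 nuclear counts of rRNA and of nuclear subunits had r of 0.90 in SCN (n = 19), 0.75 in NAc (n = 26) and 0.87 in PFC (n = 17), with rho of 0.78, 0.76 and 0.86. In the SCN it fell to 0.66 without the libraries farthest from the median, and within the ranges of mouse numbers it was 0.68 and 0.94, against 0.82 and 0.73 in NAc and 0.96 and 0.81 in PFC. Mitochondrial mRNA and nuclear subunits had r of 0.42, 0.35 and 0.17. Mitochondrial mRNA and rRNA, which come from the same genome, had 0.68, 0.64 and 0.49. The closest pair was nuclear subunits and cytosolic ribosomal proteins, with r of 0.93, 0.86 and 0.95. The difference between these r was not tested, and every pair shares its denominator and its libraries. In the SCN, the nuclear sum had r of -0.59 with the total count of the library, or -0.17 without the farthest libraries, and the values in NAc and PFC were 0.06 and -0.34.

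**Figure D5:**
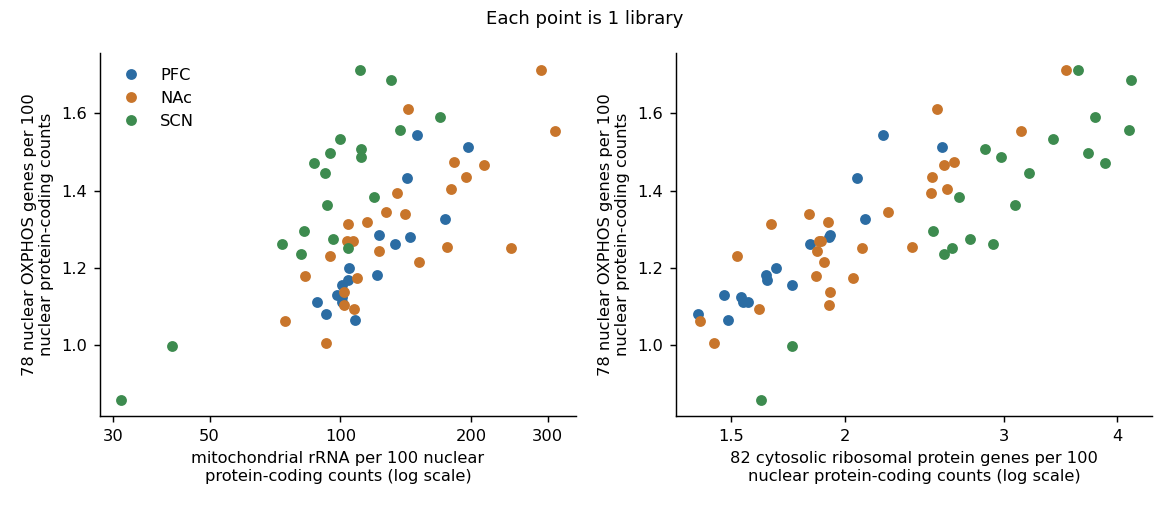
Each library's sum of the 78 nuclear subunit genes (vertical axis) against its mitochondrial rRNA (left) and against its 82 cytosolic ribosomal protein genes (right), all per 100 nuclear protein-coding counts, with log horizontal axes and regions in separate colours. Within each region the nuclear sum rises with both, with r of 0.90 in SCN, 0.75 in NAc and 0.87 in PFC for rRNA and 0.93, 0.86 and 0.95 for ribosomal proteins, computed on log2 values.

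Levels of a mouse in different regions were not alike. Mitochondrial mRNA in the NAc and PFC of 17 mice had r of 0.09, and nuclear subunits -0.02. In the NAc and SCN of 19 mice, mitochondrial mRNA had r of -0.65 (rho -0.64), -0.54 without the 2 mice farthest from the median and -0.81 (n = 7) and -0.63 (n = 12) within the ranges of mouse numbers. Among these mice, of unknown treatment and sex, those with more mitochondrial mRNA in the NAc tended to have less in the SCN, a description without a test. For the same regions, mitochondrial rRNA had r of -0.07 and nuclear subunits 0.04. Mitochondrial rRNA of the NAc and PFC had r of -0.46, which was -0.56 and -0.01 within the ranges.

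Genes outside the complexes that serve the mitochondrial genome were examined as fixed lists. Of 27 counted genes of mitochondrial transcription, replication and RNA processing, 7 were called higher and 1 lower in NAc than PFC, 2 higher and 9 lower in the SCN than in the NAc, and 3 higher and 5 lower in the SCN than in the PFC. Of all genes, 24.2% were called higher and 21.4% lower in the first comparison, 33.2% and 30.9% in the next and 34.1% and 30.6% in the last, and these shares apply to the lists that follow. Ptcd1, which binds mitochondrial RNAs, had a median of 24.4 CPM in NAc, 12.5 in PFC and 14.4 in SCN, higher in NAc than PFC in 17 of 17 mice (0.92 ± 0.087, adjusted p = 7.7e-13). Mterf2, of the transcription termination factor family, differed by 0.62 ± 0.092 (1.2e-07) between NAc and PFC, and Top1mt, the mitochondrial topoisomerase, by 0.75 ± 0.073 between SCN and NAc and 0.98 ± 0.082 between SCN and PFC. Mgme1, an exonuclease of mitochondrial DNA, was lower in NAc than PFC (-0.44) and higher in the SCN than in the NAc (0.71).

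Of 8 regulators of mitochondrial biogenesis, 4 were called higher in NAc than PFC, and in the SCN 1 higher and 5 lower than in the NAc and 1 higher and 4 lower than in the PFC, where 24.2% of all genes were called higher in NAc than PFC and 30.9% and 30.6% lower in the SCN. Nrf1, an activator of many nuclear subunit genes, was the one higher, by 0.79 ± 0.065 (adjusted p = 2.1e-17) and 1.03 ± 0.074 (5.2e-20). Ppargc1b, a coactivator, was lower in the SCN by -1.04 ± 0.12 and -0.50 ± 0.13, and Esrrg, an orphan nuclear receptor, was lower than in the NAc by -1.20 ± 0.16. Esrrg and Ppargc1b were both higher in NAc than PFC, by 0.74 ± 0.16 and 0.55 ± 0.098.

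Both ribosomes were counted in the same way. Of 77 genes of the mitochondrial ribosome, 9 were higher and 6 lower in NAc than PFC, 30 higher and 10 lower in the SCN than in the NAc, and 30 higher and 11 lower than in the PFC, where 33.2% and 34.1% of all genes were called higher in the SCN. Mrpl38 and Mrpl34 were higher in the SCN with ranges apart (1.06 ± 0.052 and 1.27 ± 0.074 against the NAc), and Mrps17 was lower (-0.68 ± 0.052). Of 82 genes of cytosolic ribosomal proteins, 20 were higher and 0 lower in NAc than PFC, 53 higher and 5 lower in the SCN than in the NAc, and 69 higher and 2 lower than in the PFC, with medians of 0.18, 0.43 and 0.57. Among 16 genes of pyruvate dehydrogenase and the citrate cycle, which feed electrons into the chain, 0 were higher and 1 lower, 2 higher and 4 lower, and 1 higher and 9 lower. Pdha1 and Idh3a lay apart from the PFC, at -0.60 ± 0.044 and -0.68 ± 0.054. Of 35 assembly and partner genes, 8 were higher and 2 lower, 6 higher and 11 lower, and 7 and 7. Cox17, a copper chaperone for complex IV, was lower in the SCN than in the NAc by -1.31 ± 0.12 and higher in NAc than PFC by 0.52 ± 0.13, and Cox20, a chaperone of mt-Co2, by -1.08 ± 0.092 and 0.89 ± 0.096.

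Promoters were read for motifs because Nrf1 and the ETS factor GABPA are known activators of these genes. RefSeq promoters on GRCm38.p6, from 250 bases before to 50 after the start, were found for 66 of the 78 nuclear subunit genes. The NRF1 motif GCGCNTGCG was in 22 of them on either strand, or 33.3%, against 14.4% of 9225 other genes of the tables and 6.6% of all 27025 promoters. The ETS motif CCGGAAG was in 15, or 22.7%, against 18.0% and 9.1%, and the YY1 motif ATGGCGGC in 6, or 9.1%, against 5.3% and 2.4%. No motif contains another, and these shares are descriptions. The following 150 bases before the start belong to members that differed between regions, with motif matches in capitals. Atp5h and Ndufs6 were called higher in the SCN, Cycs lower than in the NAc, and Cox7a2 has no match. The calls of Atp5h were lost once the counts of Gm10250 were added.
Cycs (chr6:50566570-50566719, minus strand): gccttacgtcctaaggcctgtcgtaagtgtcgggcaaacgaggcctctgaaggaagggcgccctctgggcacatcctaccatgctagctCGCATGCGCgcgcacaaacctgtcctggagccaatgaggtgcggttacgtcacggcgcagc
Atp5h (chr11:115419920-115420069, minus strand): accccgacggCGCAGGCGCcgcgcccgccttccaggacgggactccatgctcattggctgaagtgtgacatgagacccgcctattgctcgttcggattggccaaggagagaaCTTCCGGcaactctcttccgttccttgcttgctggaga
Ndufs6 (chr13:73328483-73328632, minus strand): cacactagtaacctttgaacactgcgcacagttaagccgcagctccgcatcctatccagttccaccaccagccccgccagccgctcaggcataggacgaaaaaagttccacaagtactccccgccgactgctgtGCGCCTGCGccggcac
Cox7a2 (chr9:79759854-79760003, minus strand): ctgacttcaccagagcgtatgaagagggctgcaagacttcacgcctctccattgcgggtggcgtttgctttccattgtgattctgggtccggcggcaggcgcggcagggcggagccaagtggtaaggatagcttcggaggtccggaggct
In Cycs the NRF1 match starts 61 bases before the start, and in Atp5h it starts 140 before and the ETS match 38 before. Members with and without a match were found among those higher and those lower in the SCN, and Ndufa12, lower there, also has an NRF1 match.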

How the data were processed

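The authors prepared libraries from 10 ng of RNA with a SmartSeq HT kit, aligned them to GRCm38 with HISAT2 (FastQC 0.11.7 per the labels), counted reads on genes with HTSeq in union mode, removed low genes and Y-linked genes, and deposited the counts unnormalized in 2 tables. How reads matching several places were treated is not given in the sources used here. Gene types and positions came from GENCODE M21. All sample columns were mapped to labels.

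Members, gene lists and tests were chosen with earlier results of these data known. NAc vs PFC was fitted on its table (11569 rows). SCN vs NAc and SCN vs PFC were fitted together on the 11133 rows of both tables. edgeR 4.0.16 (R 4.3.3) used its quasi-likelihood test, nuclear protein-coding library sizes, TMM factors and filterByExpr, which removed no row. A call needed a Benjamini-Hochberg adjusted p under 0.05 over all rows and a fold of 1.2. Named genes are all mitochondrial mRNAs and rRNAs, fixed isoform groups, the 6 called nuclear members with the largest fold in each direction, and 2 per direction from each list. Others were named after their values were seen, including Ndufs1, Sdha, Atp5k, Uqcrh, Ndufa10 and the pseudogenes. Each library is 1 region of 1 mouse, and p-values measure the spread between mice of unknown treatment and sex. DESeq2 1.42.0 was an alternative. Simulated counts were used to test the fits.

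Same-numbered libraries come from the same mouse. Correlations of their deviations ranged from -0.47 to 0.27 between NAc and PFC (17 mice, 7 over 0.1), -0.41 to 0.52 between SCN and NAc (19 mice, 3 over 0.1) and -0.32 to 0.39 between SCN and PFC (12 mice, 6 over 0.1).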

Additional observations from a re-analysis of the deposited data

How the results depend on the processing

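The alternatives were other scalings, DESeq2, no filter, other rows, a mouse block, ranges of mouse numbers and left-out libraries. Removing NAc J1178 and J1141, NAc J1199 or SCN J1157 and J1159, TMM-scaled sums and adding pseudogene counts were chosen after the data were seen. Of 264 counts of calls, 243 stayed within 1.5 times the main count and 21 moved. Of 2121 values of named genes, 1993 kept direction and side of the threshold, 44 passed it, 55 lost it and 29 changed sign. The causes were not tested. For NAc vs PFC, nuclear members called higher were 13 with the replicate block, 15 in the same mice without it, 20 (1 lower) up to J1021 and 3 (6 lower) from J1140, and mitochondrial mRNAs called higher were 9, 9, 5 and 2 (1 lower). With plain nuclear counts, nuclear members were 31 higher and 9 lower for SCN vs NAc and 41 and 6 for SCN vs PFC. For SCN vs PFC they were 13 and 17 with the block, 13 and 15 in the same mice without it, 36 and 6 up to J1021 and 9 and 18 from J1140. Beside the same mice, the block changed the call of 4, 0 and 2 members in the 3 comparisons. The log2 ratio of summed nuclear subunits, SCN to PFC, was 0.29, and 0.042 with TMM factors. For SCN libraries, r of mitochondrial mRNA with nuclear subunits was -0.08 up to J1021, and r of rRNA with nuclear subunits 0.66 without the 2 farthest libraries and 0.68 up to J1021 (PFC 0.96).

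The following log2 fold changes had the opposite sign from the main value. For NAc vs PFC, Cox4i1 was 0.002 with plain nuclear counts, 0.025 with the block, 0.031 in the same mice and 0.095 up to J1021, where Ndufa4 was 0.055 and Atp5g3 0.013. From J1140, mt-Rnr1 was -0.139, mt-Rnr2 -0.158, mt-Nd2 -0.039, mt-Co2 -0.378, mt-Atp8 -0.035, mt-Co3 -0.635 and Cycs -0.033. For SCN vs NAc, Cox4i1 was 0.058 and Cox8a 0.085 with plain nuclear counts, Cox7a2 -0.024 with the block, -0.014 in the same mice and -0.059 from J1140, Cox8a 0.075 up to J1021 and, with pseudogenes added, Atp5h -0.062 and Atp5l -0.264. For SCN vs PFC, plain nuclear counts gave Ndufs1 0.012, Cox4i1 0.059, Cox6b1 0.17 and Atp5g1 0.022, mice up to J1021 Cox4i1 0.051 and Cox6b1 0.132, leaving out SCN J1157 and J1159 Cox6b1 0.02, and adding pseudogenes Atp5l -0.097. Depth was lowest in the SCN, with 5.81 M nuclear counts (M, 1000000 counts) in a library, and mt-Atp8 and mt-Nd4l had medians under 10 CPM there.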
